A study of Mus musculus with 6 samples.

Results

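Pericytes and vascular smooth muscle cells, together called mural cells, wrap the vessels of the islet, and 10 genes that mark them were followed in sorted neonatal islet cells: *Acta2*, *Tagln*, *Cnn1*, *Myh11*, *Mylk*, *Des*, *Vim*, *Rgs5*, *Cspg4* and *Kcnj8*. The list was given by gene name, and its values come from the array probes whose RefSeq transcript belongs to one of them, 17 probes in all. They are 10 of 45616 genes and transcripts that were compared. Mural cells hold vessels in shape and set their width. Their contractile cells carry smooth muscle actin and myosin with the kinase and the thin filament proteins that govern them, whereas pericytes along capillaries are usually told by their filaments desmin and vimentin, by the proteoglycan NG2 and by regulators of vascular tone. Islets have a dense capillary bed, and its pericytes are known to adjust islet blood flow.

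The cells came from islets of postnatal day 1 (P1) *Wnt4eGFPCre; mTmG* pups, which were raised from crosses to C57BL/6J. In these mice a Cre recombinase made from the *Wnt4* locus switches a membrane reporter from red to green, so that a cell that has once expressed *Wnt4* stays green (mGFP+). By the series design both populations come from pups that carry both alleles. A supplementary legend of the paper, however, labels the 2 sides of the gene ontology analysis as positive and negative for *Wnt4eGFPCre*, and this difference was not resolved. The 3 *Wnt4*hi samples are mGFP+ cells (replicates 2, 3 and 4) and the 3 *Wnt4*low samples are mGFP- cells of the same age (replicates 1, 3 and 4). Each sample pools the islets of 3 or 4 pups. The sort followed the green reporter, and the labels name no gate on an endocrine or vascular marker, so the reporter records past *Wnt4* expression and not a cell type. Amplified cDNA was labelled with Cy5 and hybridized to 1-color SurePrint G3 Mouse v2 arrays on 1 slide. Between 70.5% and 79.5% of the spots were well above background, the ratio of median signal to median local background was 10.8 to 15.6 over the arrays, and 0 spots were saturated. Values are log2 intensities after background correction and quantile normalization, and every log2 fold change is *Wnt4*hi minus *Wnt4*low. The arrays hold bulk RNA, so fewer cells of a type and less RNA per cell cannot be told apart. The unadjusted p values and those adjusted over all 45616 features are from the empirical Bayes test of limma.

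Of the 10 genes, *Myh11*, *Mylk*, *Des*, *Vim*, *Rgs5* and *Kcnj8* were lower in *Wnt4*hi cells at the unadjusted threshold of 0.05, 0 were higher, and *Acta2*, *Tagln*, *Cnn1* and *Cspg4* did not pass. The threshold was passed downward by 5.53% and upward by 5.06% of all features. The same 6 genes were those whose *Wnt4*hi arrays all lay below the *Wnt4*low arrays, which held for 6.44% of all features. After adjustment 1 gene, *Mylk*, stayed below 0.05, as did 0.406% of all features in that direction. The median log2 fold change of the 10 genes was −1.35, against 0.073 over all features. Each of the 10 brightest probes stood well above background on every array, so no member was lost to a filter on dim probes. When any 1 array was left out, between 4 and 6 of the 10 genes passed the unadjusted threshold, with 4 without *Wnt4*hi replicate 3, and 0 passed after adjustment. These fits rest on fewer arrays, and the share of all features that passed in them was not counted. Whether the loss of adjusted calls is particular to these genes therefore cannot be told.

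**Figure D1:**
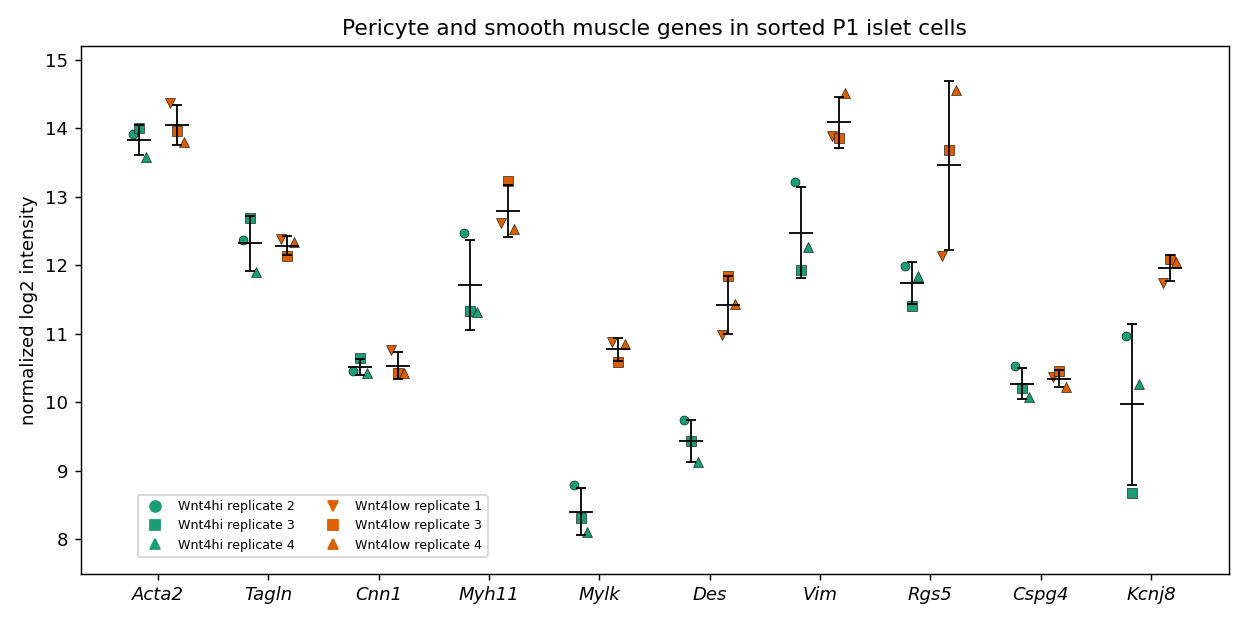
Normalized log2 intensity (vertical axis) of the brightest probe of each of the 10 genes (horizontal axis) on the 3 *Wnt4*hi and 3 *Wnt4*low arrays, one symbol per array, with the mean as a line and bars for the SD. For *Myh11*, *Mylk*, *Des*, *Vim*, *Rgs5* and *Kcnj8* the *Wnt4*hi points all lie below the *Wnt4*low points, and for *Acta2*, *Tagln*, *Cnn1* and *Cspg4* the points overlap. Levels of different genes are not comparable, since probes differ in brightness.

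The contractile proteins were not uniform. *Acta2*, the smooth muscle α-actin, was read by its brightest probe at 13.91, 14.00 and 13.58 in *Wnt4*hi replicates 2, 3 and 4 and at 14.37, 13.96 and 13.80 in *Wnt4*low replicates 1, 3 and 4. The groups overlap, with the highest value in *Wnt4*low replicate 1. The log2 fold change of −0.21 (SE 0.21) was within the spread, with a 95% confidence interval from −0.71 to 0.29 and an adjusted p of 0.81.

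The other *Acta2* probes gave another picture. One was at 11.10, 10.22 and 10.62 in *Wnt4*hi and at 12.04, 11.15 and 12.63 in *Wnt4*low cells, with a fold change of −1.30 on the log2 scale (SE 0.42, unadjusted p = 0.021, adjusted over all 56605 probes 0.324). The last was at 8.06, 7.33 and 8.46 in *Wnt4*hi and at 9.52, 8.49 and 9.89 in *Wnt4*low cells, with a fold change of −1.35 (SE 0.45, unadjusted p = 0.023, adjusted 0.334). On both, the groups are separate, though on each the gap between the highest *Wnt4*hi array and *Wnt4*low replicate 3 is narrow. With the mean of the 3 probes in place of the brightest, *Acta2* passed the unadjusted threshold with −0.95, so its call rests on which probe stands for the gene.

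*Tagln*, which encodes the actin-binding protein transgelin (SM22α), was at 12.36, 12.69 and 11.90 in *Wnt4*hi and 12.39, 12.13 and 12.34 in *Wnt4*low cells. Its single probe overlapped between the groups, the *Wnt4*hi arrays holding both the highest and the lowest value. Its log2 fold change was 0.034 (SE 0.23, 95% confidence interval −0.52 to 0.59, adjusted p = 0.98). Its sign turned to −0.045 under median centring.

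*Cnn1*, calponin 1, an actin-binding protein that restrains the myosin motor, was at 10.46, 10.65 and 10.43 in *Wnt4*hi and 10.76, 10.42 and 10.43 in *Wnt4*low cells. All 6 arrays lie close together, and the log2 fold change of −0.024 (SE 0.16, 95% confidence interval −0.40 to 0.35, adjusted p = 0.98) was matched by a dimmer probe at −0.022 (SE 0.21), which was well above background on 2 of the 3 *Wnt4*low arrays. The sign of *Cnn1* turned to 0.032 on the processed intensities.

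*Myh11*, the smooth muscle myosin heavy chain, was lower on all its probes. The brightest was at 12.46, 11.34 and 11.32 in *Wnt4*hi and 12.61, 13.22 and 12.53 in *Wnt4*low cells. *Wnt4*hi replicate 2 reached almost the lowest *Wnt4*low array, while its other 2 arrays stood clearly below. On this probe the log2 fold change was −1.08 (SE 0.37, unadjusted p = 0.026, adjusted p = 0.366). The other *Myh11* probes gave −1.58 (SE 0.27) and −1.49 (SE 0.34), again with every *Wnt4*hi array below every *Wnt4*low array, and adjusted p over probes of 0.085 and 0.165. The unadjusted call on the brightest probe was lost without *Wnt4*hi replicate 3 (−0.91), *Wnt4*hi replicate 4 (−0.89) or *Wnt4*low replicate 3 (−0.86).

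*Mylk*, the myosin light chain kinase that starts contraction when calcium rises, had the lowest p of the 10. It was at 8.79, 8.32 and 8.11 in *Wnt4*hi and 10.88, 10.58 and 10.86 in *Wnt4*low cells, with no *Wnt4*hi array near the *Wnt4*low range. The log2 fold change of −2.37 (SE 0.21) is a 5.17-fold lower level in *Wnt4*hi cells, with an adjusted p of 0.0269. A further probe gave −1.67 (SE 0.29, adjusted p over probes 0.0913). The dimmest was well above background on 0 of 3 *Wnt4*hi arrays, where *Mylk* was at least 6.37-fold lower by that probe (adjusted p over probes 0.0346), a bound that sets each *Wnt4*hi array at the lowest signal found well above background on it, or at the probe itself where that is higher. Its fold change stayed between −2.56 and −2.22 in 16 alternative settings, although in the fits on fewer arrays the adjusted call was lost whichever 1 was left out.

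**Figure D2:**
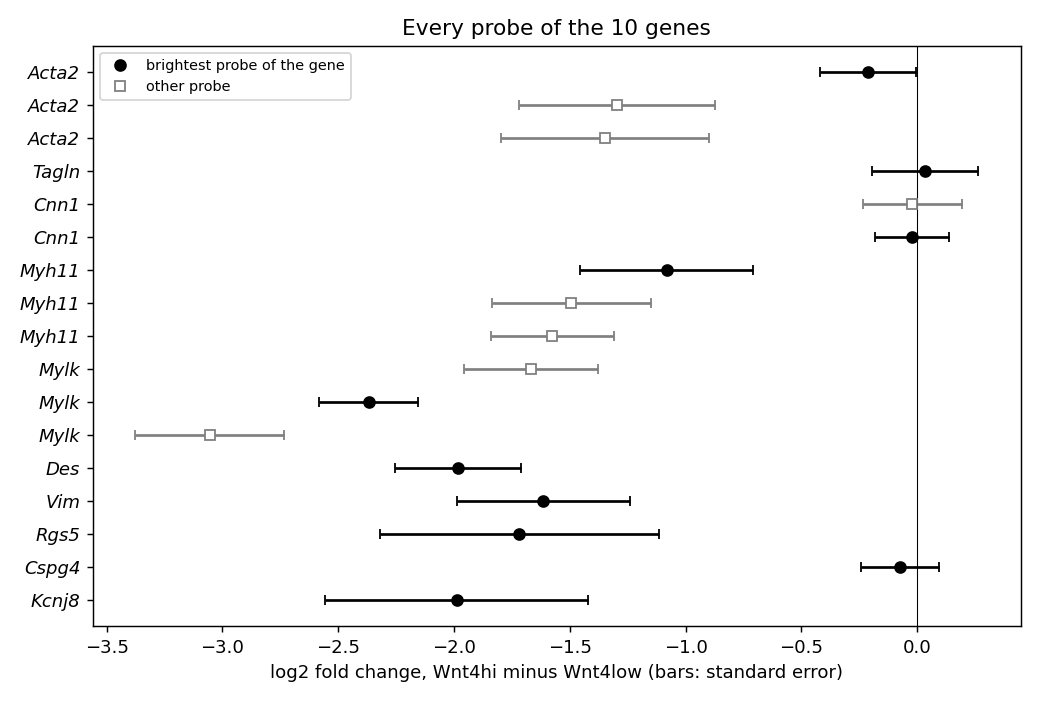
Log2 fold change, *Wnt4*hi minus *Wnt4*low (horizontal axis), with its standard error for each of the 17 probes of the 10 genes (vertical axis), filled for the brightest probe of a gene and open for its other probes. The brightest *Acta2* probe lies at −0.21 and its other probes at −1.30 and −1.35, while all *Myh11* and *Mylk* probes lie below −1.0 and both *Cnn1* probes lie near 0.

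Counted by probe, 12 of the 17 were lower in *Wnt4*hi at the unadjusted threshold, beside 6.12% of all probes, and 0 were higher, beside 4.88%. The 5 that did not pass were the brightest *Acta2* probe, the *Tagln* probe, both *Cnn1* probes and the *Cspg4* probe. Probes of 1 gene share their transcript, so these are not 17 separate observations.

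The promoters of some of these genes are shown because contractile genes are known targets of serum response factor (SRF), which binds the CArG box, and because the contractile members differed among themselves. Promoter windows were found for 8 of the 10 genes, from RefSeq on the assembly GRCm38.p6, and not for *Tagln* and *Myh11*. The 250 bases before the transcript start were searched for a loose CArG box, CC followed by 6 bases of which at least 5 are A or T and then by GG. The pattern reads the same way on both strands, so each match counts once. It was in the window of *Acta2*, at 84 to 75 and at 34 to 25 bases before the start, and in that of none of the other 7. Of all 32851 promoter windows 8.59% hold it, and 1.47% hold it with all 6 inner bases A or T. Counted by gene, 9.78% of 27025 genes have a window that holds it. Of the other mural genes described below, 35 had a window and 6 of these genes held the pattern: *Myl9* and *Srf* with 2 matches each, and *Pdlim3*, *Myl6*, *Mrtfa* and *Tbx18* with 1 each. Of these 7 holders, *Acta2* included, *Myl9* and *Pdlim3* were lower in *Wnt4*hi cells, *Srf* was higher, and *Acta2* by its brightest probe, *Myl6*, *Mrtfa* and *Tbx18* did not pass. Such a match is a stretch of letters and not a measured binding site. The windows are given 5′ to 3′ on the strand of the gene, with the matches in capitals: *Acta2* (chr19:34255374-34255623, minus strand), *Myl9* (chr2:156775214-156775463, plus strand) and *Srf* (chr17:46556163-46556412, minus strand) hold the pattern, and *Des* (chr1:75360042-75360291, plus strand) and *Kcnj8* (chr6:142571615-142571864, minus strand) are members that were lower in *Wnt4*hi cells and hold none.
Acta2: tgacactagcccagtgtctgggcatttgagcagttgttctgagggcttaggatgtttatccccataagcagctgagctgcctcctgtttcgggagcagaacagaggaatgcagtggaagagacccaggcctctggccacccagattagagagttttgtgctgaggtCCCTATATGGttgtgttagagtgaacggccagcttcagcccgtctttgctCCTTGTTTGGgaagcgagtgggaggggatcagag
Myl9: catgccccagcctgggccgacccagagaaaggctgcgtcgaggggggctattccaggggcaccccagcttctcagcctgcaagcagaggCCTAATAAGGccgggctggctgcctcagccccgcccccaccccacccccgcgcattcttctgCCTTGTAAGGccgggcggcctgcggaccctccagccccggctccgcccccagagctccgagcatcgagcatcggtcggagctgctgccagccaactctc
Srf: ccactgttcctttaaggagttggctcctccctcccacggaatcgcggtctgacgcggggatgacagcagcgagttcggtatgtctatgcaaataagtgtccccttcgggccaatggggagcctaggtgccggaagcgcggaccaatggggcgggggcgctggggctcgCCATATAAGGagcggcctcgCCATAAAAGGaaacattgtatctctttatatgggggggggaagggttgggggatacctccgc
Des: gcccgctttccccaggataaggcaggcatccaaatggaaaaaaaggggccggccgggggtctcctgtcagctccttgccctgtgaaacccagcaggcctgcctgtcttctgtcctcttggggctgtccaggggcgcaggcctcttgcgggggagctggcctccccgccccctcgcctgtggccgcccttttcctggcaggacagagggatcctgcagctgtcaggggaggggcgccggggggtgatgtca
Kcnj8: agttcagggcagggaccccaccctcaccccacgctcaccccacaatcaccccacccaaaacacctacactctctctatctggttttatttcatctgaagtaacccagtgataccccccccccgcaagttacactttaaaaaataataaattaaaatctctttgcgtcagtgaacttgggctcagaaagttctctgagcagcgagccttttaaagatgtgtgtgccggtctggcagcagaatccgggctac

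Both intermediate filament genes were lower in *Wnt4*hi cells. *Des*, which encodes desmin, the muscle filament that also marks pericytes, was at 9.74, 9.44 and 9.12 in *Wnt4*hi and 10.98, 11.84 and 11.44 in *Wnt4*low cells. The groups are more than 1 log2 unit apart at their nearest arrays. Between the means the log2 fold change was −1.98 (SE 0.27), a 3.95-fold lower level, with an unadjusted p of 0.00029 and an adjusted p of 0.0575. It passed the unadjusted threshold in all 17 alternative settings.

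*Vim*, vimentin, is the filament of mesenchymal cells at large and is also made by fibroblasts, endothelial cells and leukocytes. It was at 13.22, 11.94 and 12.27 in *Wnt4*hi and 13.89, 13.86 and 14.52 in *Wnt4*low cells. *Wnt4*hi replicate 2 was the highest of its group and still below all *Wnt4*low arrays. The log2 fold change was −1.61 (SE 0.37, unadjusted p = 0.0046, adjusted p = 0.174), and it too passed the unadjusted threshold in all 17 alternative settings.

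Of the pericyte surface and signalling genes, *Rgs5* and *Kcnj8* were lower and *Cspg4* was not. *Rgs5*, a regulator that shortens G protein signalling in pericytes, was at 11.98, 11.40 and 11.84 in *Wnt4*hi and 12.13, 13.68 and 14.56 in *Wnt4*low cells. The *Wnt4*low arrays spread widely, and *Wnt4*low replicate 1 was close to *Wnt4*hi replicate 2. With this spread the log2 fold change was −1.72 (SE 0.60, unadjusted p = 0.028, adjusted p = 0.377). The unadjusted call was lost without *Wnt4*hi replicate 3 (−1.56), *Wnt4*hi replicate 4 (−1.76), *Wnt4*low replicate 3 (−1.61) or *Wnt4*low replicate 4 (−1.17).

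*Kcnj8*, the Kir6.1 pore of the vascular ATP-sensitive potassium channel, was at 10.97, 8.67 and 10.27 in *Wnt4*hi and 11.74, 12.09 and 12.05 in *Wnt4*low cells. Here the *Wnt4*hi arrays spread widely, the lowest being replicate 3, and the *Wnt4*low arrays lie together above them. The log2 fold change was −1.99 (SE 0.57, unadjusted p = 0.012, adjusted p = 0.269), and it passed the unadjusted threshold in all 17 alternative settings.

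*Cspg4*, the NG2 proteoglycan of the pericyte surface, was at 10.53, 10.21 and 10.08 in *Wnt4*hi and 10.37, 10.46 and 10.22 in *Wnt4*low cells. The ranges overlap, with the highest array in the *Wnt4*hi group. The log2 fold change was −0.074 (SE 0.17, 95% confidence interval −0.48 to 0.33, adjusted p = 0.93), and it turned to 0.020 without *Wnt4*hi replicate 4. In the authors' own normalized table *Cspg4* was at −0.40 and passed the unadjusted threshold, but the column of that table for *Wnt4*hi replicate 2 correlated with its own array at only 0.271 and with *Wnt4*hi replicate 3 at 0.287, so it may hold another sample and every value from that table carries this doubt.

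A further 46 genes of the mural programme were described by role, 16 of the contractile apparatus, 13 receptors and channels, 10 pericyte-enriched genes and 7 transcription regulators. Of these, 25 were lower in *Wnt4*hi cells at the unadjusted threshold, against 5.53% of all features, 1 was higher, against 5.06%, and 20 did not pass. The median log2 fold change was −1.09. After adjustment *Cald1*, *Itga8* and *Foxf1* stayed below 0.05, as did 0.406% of all features in that direction. In the fits on fewer arrays none of these genes did when any 1 array was left out.

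In the contractile apparatus 9 of 16 genes were lower and 0 higher, with a median of −0.90. *Cald1*, caldesmon, which covers actin at rest, was at 11.66, 11.26 and 11.19 in *Wnt4*hi and 12.68, 13.14 and 13.06 in *Wnt4*low cells, which is a log2 fold change of −1.59 (SE 0.20, adjusted p = 0.0483). *Myl9*, the regulatory light chain that the kinase encoded by *Mylk* phosphorylates, fell by 2.01 on the log2 scale (SE 0.46, unadjusted p = 0.0046), and *Ppp1r12a*, a subunit of the phosphatase that reverses this step, by 1.35 (SE 0.36, unadjusted p = 0.0088), though in the authors' table *Ppp1r12a* was at −0.53 and did not pass. *Smtn*, smoothelin, was lower by a log2 fold change of −1.63 (SE 0.31; −0.99 by its other probe) and *Pdlim3*, an actinin-associated protein, by −1.57 (SE 0.24, well above background on 1 of 3 *Wnt4*hi arrays). The 7 that did not pass were *Ppp1r14a*, *Pdlim7*, *Lmod1*, *Myl6*, *Actn1*, *Tpm1* and *Synpo2*. Dimmer probes of *Pdlim7* and *Myl6* were lower at that threshold, at −0.79 (SE 0.21, unadjusted p = 0.0098) and −0.64 (SE 0.26, unadjusted p = 0.046), so both calls depend on the probe.

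Among receptors and channels 9 of 13 were lower and 0 higher, with a median of −1.87. *Pdgfrb*, the PDGF receptor that recruits pericytes, was at 12.10, 10.89 and 11.94 in *Wnt4*hi and 13.11, 13.63 and 13.79 in *Wnt4*low cells, which is a log2 fold change of −1.87 (SE 0.37, adjusted p = 0.122). *Notch3*, the Notch receptor of mural cells, was at −1.55 (SE 0.30, adjusted p = 0.119). *Gucy1a1* and *Gucy1b1*, the subunits of the soluble guanylate cyclase that senses nitric oxide, were at −2.24 (SE 0.44) and −2.85 (SE 0.57), *Gucy1b1* being well above background on 2 of 3 *Wnt4*hi arrays. *Itga8*, the α8 integrin, was well above background on 0 of 3 *Wnt4*hi arrays and at least 3.49-fold lower there (adjusted p = 0.0491). *Mcam* (−0.030, SE 0.12), *Anpep* (−0.53, SE 0.33), *Enpep* (−0.15, SE 0.58) and *Kcnmb1* (0.43, SE 0.29) did not pass. *Enpep* was well above background on 2 of 3 arrays of each population and *Kcnmb1* on 2 of 3 *Wnt4*low arrays. Whether these genes differ from those that passed was not tested.

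In the pericyte-enriched list 6 of 10 were lower and 0 higher, with a median of −1.34. *Ndufa4l2*, a protein tied to mitochondrial complex I, was lower by a log2 fold change of −1.73 (SE 0.29, adjusted p = 0.0825), *Higd1b* by −1.41 (SE 0.24, adjusted p = 0.0861), the transcription factor *Ebf1* by −2.10 (SE 0.42) and the Notch target *Heyl* by −1.91 (SE 0.54). *Rgs4*, a relative of *Rgs5*, was well above background on 0 of 3 *Wnt4*hi arrays and at least 1.79-fold lower there (adjusted p = 0.210). *Vtn* passed at −1.63 (SE 0.58) although its arrays overlap, and *Cox4i2*, *Foxs1*, *Steap4* and *Colec11* did not pass.

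Of 7 transcription regulators 1 was lower and 1 higher, and their log2 fold changes ran from −2.61 to 0.67. Their median of 0.0052 is the value of *Myocd*, a probe not above background, and their difference from the other lists was not tested. *Foxf1*, a forkhead factor of gut and lung mesenchyme, was at 8.31, 7.84 and 7.63 in *Wnt4*hi and 10.61, 10.29 and 10.73 in *Wnt4*low cells, which is a log2 fold change of −2.61 (SE 0.23, adjusted p = 0.0256), and its probe exceeded background clearly on 2 of 3 *Wnt4*hi arrays. *Srf* was at 13.55, 13.46 and 13.32 in *Wnt4*hi and 12.34, 13.24 and 12.74 in *Wnt4*low cells, which is a log2 fold change of 0.67 (SE 0.24, unadjusted p = 0.033, adjusted p = 0.404) that missed the unadjusted threshold in 9 of 17 alternative settings. The *Srf* value was 0.44 without *Wnt4*low replicate 1 and 0.90 without *Wnt4*low replicate 3. *Myocd*, the SRF coactivator myocardin, was well above background on no array, and *Mrtfa*, *Mrtfb*, *Tbx18* and *Gata6* did not pass, though 1 of the dimmer *Mrtfb* probes gave −0.75 (unadjusted p = 0.037).

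**Figure D3:**
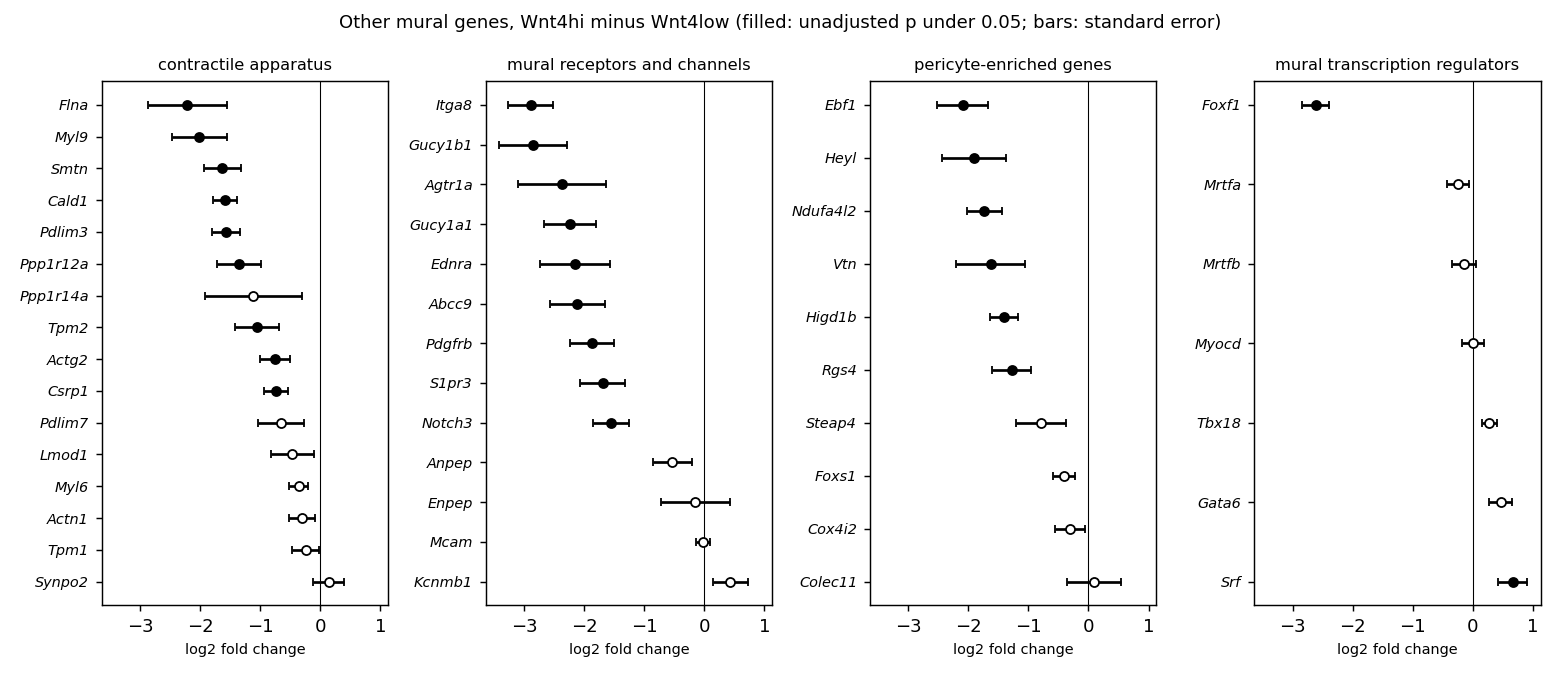
Log2 fold change, *Wnt4*hi minus *Wnt4*low (horizontal axis), with its standard error for 46 other mural genes (vertical axis) in 4 panels by role, filled where the unadjusted p was under 0.05. Filled points lie at negative values for 9 contractile genes, 9 receptors and channels and 6 pericyte-enriched genes, and among regulators *Foxf1* is lower and *Srf* higher.

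Apart from *Vim*, each member, and *Abcc9* of the other mural genes, was set beside a relative that other cells also use, or for *Cspg4* beside a proteoglycan related by name only. The pairs were compared by the within-array difference of log2 values and a two-sided exact permutation test over arrays, whose smallest possible p is 0.1 for 3 against 3. *Mylk* and *Mylk3*, its cardiac relative, differed by −2.65 (exact permutation p = 0.1), since *Mylk3* was at 0.28 (SE 0.12). *Cspg4* and *Cspg5*, a proteoglycan of neural tissue, differed by −0.81 (exact permutation p = 0.1), with *Cspg5* at 0.74 (SE 0.18, unadjusted p = 0.0066) by its brightest probe. Another *Cspg5* probe gave 0.22 (SE 0.25) with overlapping arrays, and with the mean of the probes *Cspg5* was at 0.48 and the pair differed by −0.55. *Kcnj8* and *Kcnj11*, the Kir6.2 pore of the β-cell channel, differed by −2.87 (exact permutation p = 0.1), with *Kcnj11* at 10.48, 10.15 and 10.86 in *Wnt4*hi and 9.50, 10.01 and 9.35 in *Wnt4*low cells, which is a log2 fold change of 0.88 (SE 0.26). Another *Kcnj11* probe gave 0.19 (SE 0.19) with overlapping arrays, so the size of the *Kcnj11* value depends on the probe, and with the mean of the probes it was 0.53 and the pair differed by −2.52. The regulatory subunits of these channels were split in the same way: *Abcc9* (SUR2, vascular) was at −2.12 (SE 0.46) and *Abcc8* (SUR1, β-cell) at 1.92 (SE 0.57; 1.29 by its other probe), a difference of −4.04 (exact permutation p = 0.1). These 4 pairs were the ones whose within-array differences did not overlap between the populations. Adjusted over the 10 pairs, their exact permutation p was 0.25 each.

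The other pairs overlapped. *Acta2* by its brightest probe and cytoplasmic β-actin *Actb*, at −0.32 (SE 0.23), differed by 0.10 (exact permutation p = 0.6), but by −0.64 with the mean of the probes and by −0.037 without *Wnt4*low replicate 4. *Tagln* and *Tagln2* differed by 0.49 (exact permutation p = 0.3), *Cnn1* and *Cnn3* by 0.38 (exact permutation p = 0.3), and *Myh11* and the non-muscle myosin *Myh9* by −0.58 (exact permutation p = 0.2). Leaving out 1 array moved these differences without turning them, to 0.17 and 0.83 for *Tagln* (without *Wnt4*hi replicates 3 and 4), 0.21 and 0.61 for *Cnn1* (without *Wnt4*hi replicates 3 and 2) and −0.33 and −0.93 for *Myh11* (without *Wnt4*low replicates 3 and 4). *Des* and *Nes*, nestin, a filament of progenitors, pericytes and endothelium, were both lower, with *Nes* at −1.94 (SE 0.26) and a difference of −0.044 (exact permutation p = 1). Leaving out *Wnt4*low replicate 1 gave a difference of −0.38, leaving out replicate 3 of that population gave 0.38, and it was 0.53 in the authors' table. *Rgs5* and *Rgs2* differed by −0.56 (exact permutation p = 0.7), *Rgs2* being at −1.16 (SE 0.42). The difference was −1.35 without *Wnt4*low replicate 1 and 0.10 without *Wnt4*low replicate 4. *Rgs2* lost its unadjusted call whichever *Wnt4*low array was left out, and was at −0.68, with the call kept, without *Wnt4*hi replicate 4.

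**Figure D4:**
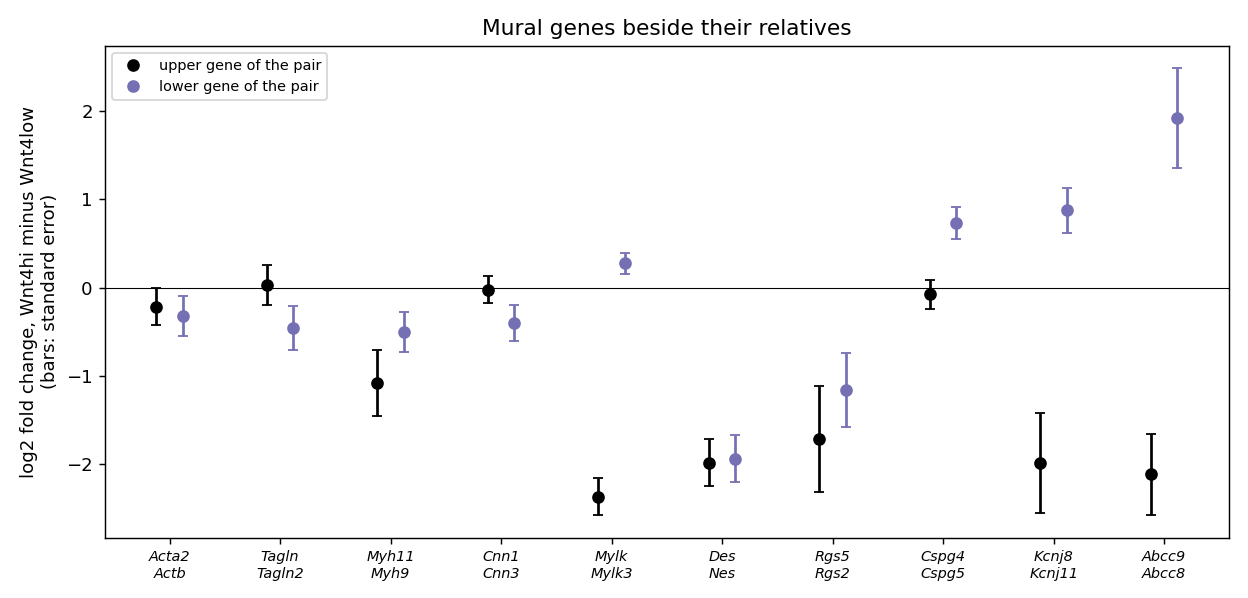
Log2 fold change, *Wnt4*hi minus *Wnt4*low (vertical axis), with its standard error for 10 gene pairs (horizontal axis), the mural gene on the left in black and its partner on the right in violet. The partner is a relative, except that *Cspg5* is related to *Cspg4* by name only. *Kcnj8* and *Abcc9* lie near −2 with *Kcnj11* and *Abcc8* above 0, while *Des* and *Nes* lie at −1.98 and −1.94.

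The 10 genes varied across arrays within a population too. Centred on each gene's mean over the 6 arrays, their median was −0.044, −0.95 and −0.73 in *Wnt4*hi replicates 2, 3 and 4 and 0.40, 0.78 and 0.64 in *Wnt4*low replicates 1, 3 and 4. *Wnt4*hi replicate 2 thus lay nearest to the *Wnt4*low arrays. Without it, 6 of the 10 genes still passed the unadjusted threshold, and the median log2 fold change was −1.66. The genes outside the list whose centred values lay closest to this median profile, by Euclidean distance over the 6 arrays among 17648 genes with a symbol, were *Rasl12* (0.189), *Cstdc6* (0.194), *Vasn* (0.265), *Ccdc68* (0.380) and *4933409K07Rik* (0.417). *Rasl12* was at 11.64, 10.88 and 11.07 in *Wnt4*hi and 12.25, 12.47 and 12.54 in *Wnt4*low cells, which is a log2 fold change of −1.22 (SE 0.23). As *Rasl12* was picked for its likeness to the profile, the direction of this value follows from the choice. The members themselves lay at distances between 0.534 (*Myh11*) and 1.81 (*Tagln*) from their own median. Among the candidates these distances would rank 28 and 8043, so many other genes lay closer to the profile than most members.

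Markers of other cell types moved with the same comparison. Of 10 endothelial markers 9 were lower in *Wnt4*hi, beside 5.53% of all features, and 8 after adjustment, beside 0.406%. Their median was −3.63, and their summed intensity was 3739 to 4775 in *Wnt4*hi and 30321 to 56483 in *Wnt4*low arrays. *Plvap* and *Pecam1*, the brightest, were at −4.10 (SE 0.35) and −3.04 (SE 0.33). Of 10 fibroblast markers 5 were lower, with a median of −1.09, and their summed intensity was 18040 to 60426 in *Wnt4*hi and 58674 to 68911 in *Wnt4*low arrays, with *Wnt4*hi replicate 2 at 60426. Leaving out that array gave a median of −1.65, and leaving out *Wnt4*hi replicate 3 gave −0.68. *Col3a1* was at −1.18 (SE 0.44) and *Col1a2* at −1.06 (SE 0.44). Of 10 leukocyte markers 5 were lower, with a median of −0.73 and a summed intensity of 11621 to 16590 against 21533 to 26077. *Csf1r* was at 0.075 (SE 0.17) by its brightest probe and at −0.94 (SE 0.40) by another, neither of which passed, and *Tyrobp* at −1.67 (SE 0.27). Of the endothelial, fibroblast and leukocyte markers 0 were higher at the unadjusted threshold. The summed intensity of the 10 mural genes was 31793 to 46062 in *Wnt4*hi and 62896 to 84442 in *Wnt4*low arrays. The part of these other cells in the values of the mural genes was not tested.

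The β-cell and α-cell markers that passed were higher. Of 8 β-cell markers 5 were higher in *Wnt4*hi, with a median of 1.16, and of 6 α-cell markers 3 were higher, with a median of 2.03. Without *Wnt4*low replicate 1 these medians were 0.76 and 1.15. *Ins2* was higher by 0.56 (SE 0.19) on the log2 scale, whereas *Ins1* at 0.43 (SE 0.20), *Gcg* at 1.27 (SE 0.65) and *Ttr* at 1.41 (SE 0.62) did not pass, although another *Ttr* probe gave 1.54 (SE 0.55, unadjusted p = 0.031). The remaining lists had 2 of 8 Schwann, 1 of 5 mesothelial, 1 of 8 acinar, 1 of 6 duct, 2 of 3 δ-cell and 2 of 5 erythroid markers lower, and 1 δ-cell marker higher, with medians of −0.50, −1.16, −0.84, −0.19, −0.56 and −0.25. Of all features 5.53% were lower and 5.06% higher, and in lists this short 1 call is not read as a result.

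**Figure D5:**
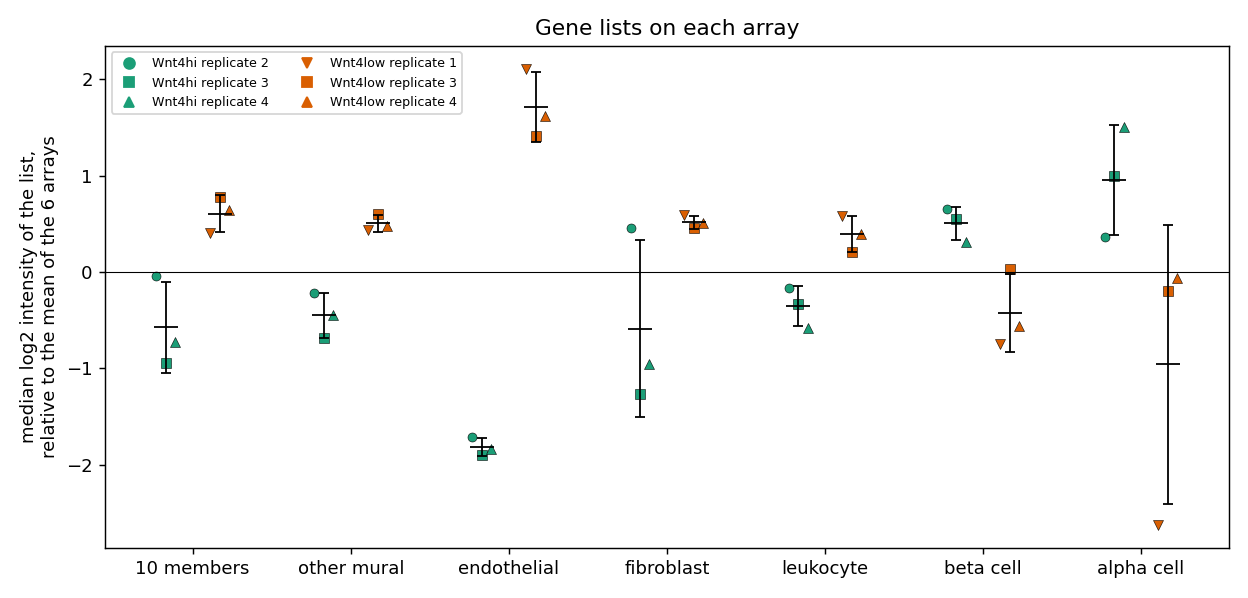
Median log2 intensity of each gene list relative to the mean of each gene over the 6 arrays (vertical axis), on the 3 *Wnt4*hi and 3 *Wnt4*low arrays, for the 10 mural genes, 46 other mural genes and markers of other cell types (horizontal axis), with the mean as a line and bars for the SD. Mural, endothelial and leukocyte lists lie lower on all *Wnt4*hi arrays, and in the fibroblast list *Wnt4*hi replicate 2 (0.46) lies within the *Wnt4*low range of 0.45 to 0.59.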

How the data were processed

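Per the file headers, the deposited scanner files give each spot's median red-channel intensity and local background, not normalized, and the authors' processed intensity. The authors' table of normalized log2 values served as an alternative. It lacks *Mylk*, reads *Acta2* by another probe, and its column for *Wnt4*hi replicate 2 followed its own array only weakly (r = 0.271 over centred values, against 0.843 to 0.872 for the other columns) and may hold another sample. As in the methods, background was corrected with normexp (offset 50) and values were quantile normalized. Before the quantile normalization, outlier spots (50 to 141 per array) and non-uniform spots were removed, a step that the methods do not name. Spots of 1 probe were averaged, and the brightest probe stood for a gene. Populations were compared with lmFit and eBayes in limma 3.58.1 (R 4.3.3), without covariates, with Benjamini-Hochberg adjustment over 45616 features or, for single probes, 56605 probes. Of 32115 RefSeq-type probe names, 31746 were found in a RefSeq table (GRCm38.p6), used for names only since the array design is older. Named genes are the 10 members, up to 5 further mural genes per role (unadjusted p under 0.05, arrays not overlapping, lowest p first), the partners in the pairs, the 5 closest profiles and the 2 brightest markers of the endothelial, fibroblast, leukocyte, β-cell and α-cell lists. Members and lists were chosen with earlier results of these data known. *Muc16* and *Hbb-bs* had no matched probe. The calculation was tested on simulated data. With 3 arrays per population, p values rest on the spread between few pools.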

Additional observations from a re-analysis of the deposited data

How the results depend on the processing

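In 17 alternative settings the unadjusted count of lower members was 4 to 7, and that of other mural genes 19 to 27. *Des*, *Vim* and *Kcnj8* passed in all 17, *Mylk* in the 16 that hold it. Leaving out any 1 array gave 0 adjusted members and 0 adjusted other mural genes, and the share of all features that passed in these fits was not counted. Leaving out 1 array also gave 0 to 1 other mural genes higher, and log2 fold changes of −0.091 to 0.088 for *Cnn1*, −0.15 to 0.24 for *Tagln* and −0.20 to 0.020 for *Cspg4*. The medians then ran from −3.89 to −3.36 for endothelial, 0.76 to 1.44 for β-cell and −0.78 to −0.032 for erythroid markers, and 1.15 (without *Wnt4*low replicate 1) to 2.43 for α-cell, −1.65 (without *Wnt4*hi replicate 2) to −0.68 (without *Wnt4*hi replicate 3) for fibroblast, −1.74 (without *Wnt4*low replicate 3) to −0.63 (without *Wnt4*low replicate 1) for mesothelial, −1.17 to −0.56 (without *Wnt4*low replicate 3) for acinar, −0.41 (without *Wnt4*low replicate 4) to −0.057 (without *Wnt4*low replicate 1) for duct and −0.56 to −0.33 (without *Wnt4*hi replicate 3) for Schwann markers.

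The number of adjusted members was 2 under median centring, the processed intensity, an offset of 16, the filter on dim probes or the mean of the probes, and 0 in the authors' table, which lacks *Mylk*. The filter on dim probes also gave 6 adjusted other mural genes, a median of −1.35 for them and 0.11 for duct markers. The processed intensity gave medians of −1.38 for other mural genes and −4.25 for endothelial markers, 0 higher mural genes and *Cnn1* at 0.032. Median centring gave 0 higher mural genes and *Tagln* at −0.045. The mean of the probes gave 2 higher mural genes, Schwann markers at −0.27 and *Acta2* minus *Actb* at −0.64. The authors' table gave other mural genes at −0.71, duct markers at 0.14, *Cnn1* minus *Cnn3* at 0.76 and *Cnn1* at 0.029. The causes were not tested.

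Replicates 3 and 4 occur in both populations, with 4 and 3 pups pooled in each, and the labels do not say whether arrays of the same number come from the same pups. Deviations of same-numbered arrays from their group means correlated at r = −0.0325 and 0.156, which does not settle the pairing. In the fit with the replicate block, arrays whose replicate number occurs in only 1 population drop out of the contrast, which rests on replicates 3 and 4 alone. It is therefore not a paired comparison over all arrays. In that fit 0 members and 0 other mural genes passed after adjustment, 0 mural genes were higher, and medians were −1.82 for the members, −1.31 for other mural genes, 0.76 for β-cell, −0.31 for δ-cell and −0.96 for erythroid markers, with *Cnn1* at 0.11, and *Kcnj11* at 0.83 lost its unadjusted call. Signal over background limited *Itga8*, *Rgs4* and 1 *Mylk* probe to bounds in *Wnt4*hi cells.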
